A study of Homo sapiens with 6 samples.

Results

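The vehicle baseline of NCI-H69 cells was described from the 3 libraries of cells given DMSO, out of 6 libraries in the series. Membership followed the treatment label alone, and the other 3 libraries, from cells given the ABL kinase inhibitor GNF5, were not used. NCI-H69 is an established human line of small cell lung cancer. Its genotype is labelled WT, and every library came from cells held for 48 h in DMSO, the solvent that serves as the control for GNF5. The cells were grown in RPMI medium with fetal bovine serum and antibiotics, and total RNA was extracted. The method of library construction (selection of poly(A) RNA or removal of ribosomal RNA) is not stated in the labels or file headers. The labels do not say that the 3 libraries came from separate cultures, so the spread between them may be technical. With 1 group there is no comparison of conditions, and no test was made. Levels below are CPM, a gene's share of a library's counts times 1000000, or TPM, the count divided by the gene's exon length and scaled to a total of 1000000 in each library. Values written with ± are the mean and SD over the libraries (n = 3), and values for single libraries follow the order of replicates 1, 2 and 3.

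Small cell lung cancer is a fast-growing tumour whose cells usually resemble the neuroendocrine cells of the airway. Such cells store peptides and amines in dense-core granules and release them on stimulation, and they share many genes with neurons. Tumours are sorted by the transcription factor that dominates, among them NEUROD1 in a neuroendocrine type, POU2F3 in a type that resembles the chemosensory tuft cell, and YAP1 in a type with few neuroendocrine features. ATOH1, the factor that specifies hair cells and Merkel cells, marks a further small group. Neuroendocrine tumours express the NOTCH inhibitor DLL3 and the repressor INSM1, while REST represses neuronal genes in other tissues. NCI-H69 is known for amplification of MYCN, a growth-promoting member of the MYC family.

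The labelled cell type was checked against a list of cell type markers. All of INSM1, SYP, CHGA, NCAM1, UCHL1, ENO2, DLL3 and EPCAM lay above 80 TPM in every library. The lowest of these 8 was DLL3, a ligand that inhibits NOTCH signalling within the cell, at 94.3, 84.2 and 96.1 TPM. The highest was INSM1, a zinc finger repressor of neuroendocrine cells, at 1674, 1592 and 1624 TPM. NEUROD1, a bHLH factor of neurons and endocrine cells, stood at 2.24, 1.54 and 1.63 TPM. Of the 5 markers of the tuft-like type, only ASCL2 passed 1 TPM, at 7.45, 8.60 and 8.44 TPM. None of the 8 markers of the non-neuroendocrine type reached 1 TPM in any library, and AXL and YAP1 had 0 counts in all. Most of these markers are part of longer lists described below, and other members of those lists were expressed: 8 of 18 tuft-like genes reached 1 TPM in every library, led by SOX9 at 38.3 TPM, and 12 of 28 non-neuroendocrine genes, led by S100A6 at 932 TPM. The 8 neuroendocrine markers were thus expressed, and genes of the other types were not absent throughout. In RNA from a bulk culture, fewer cells of a type and less RNA per cell cannot be told apart, and this holds for every level below.

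**Figure D1:**
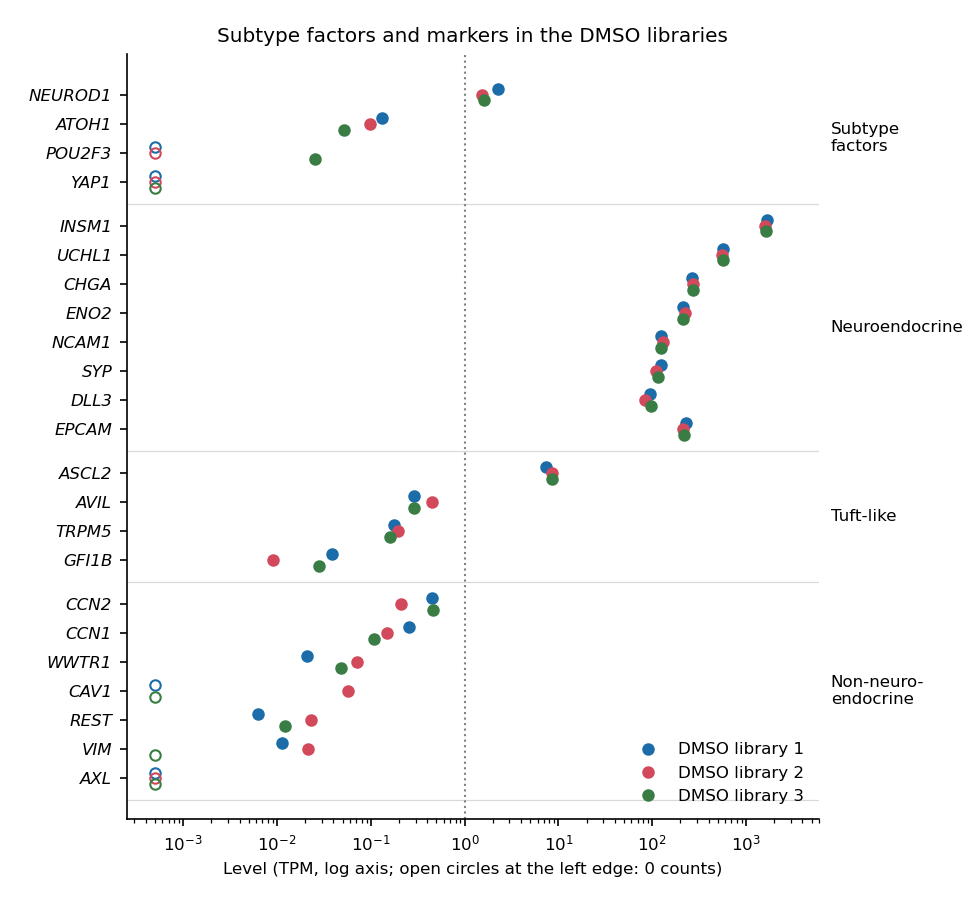
Levels of the subtype factors and of neuroendocrine, tuft-like and non-neuroendocrine markers in the 3 DMSO libraries, as TPM on a log axis, 1 point per library. Open circles stand for 0 counts. The 8 neuroendocrine markers lie between 84.2 and 1674 TPM in every library, and YAP1 and AXL have no counts.

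The contrast between granule genes at a high level and genes with no counts can be set beside the DNA upstream of their starts. Shown here are the 250 bases before the RefSeq start of 4 genes: CHGA, a granin that packs dense-core granules; NTS, the peptide neurotensin; YAP1, the co-activator of the HIPPO pathway; and MGMT, the enzyme that removes alkyl groups from guanine. The first pair stood at 269.8 and 78.2 TPM, and the second pair had 0 counts in all libraries. Sequences are from RefSeq (GRCh38.p14), whose table holds 27305 genes, all on the plus strand, 5′ to 3′, with each CG dinucleotide in capitals. CHGA lies at chr14:92922900-92923149, NTS at chr12:85874045-85874294, YAP1 at chr11:102110197-102110446 and MGMT at chr10:129466991-129467240. The deposited annotation starts MGMT further upstream, at 129467190, so the end of its stretch lies inside the gene there.
CHGA: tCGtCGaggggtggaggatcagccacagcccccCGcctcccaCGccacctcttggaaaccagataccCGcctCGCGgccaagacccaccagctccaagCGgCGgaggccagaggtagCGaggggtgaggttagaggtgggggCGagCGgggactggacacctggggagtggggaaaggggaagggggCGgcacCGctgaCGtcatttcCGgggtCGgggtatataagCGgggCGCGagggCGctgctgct
NTS: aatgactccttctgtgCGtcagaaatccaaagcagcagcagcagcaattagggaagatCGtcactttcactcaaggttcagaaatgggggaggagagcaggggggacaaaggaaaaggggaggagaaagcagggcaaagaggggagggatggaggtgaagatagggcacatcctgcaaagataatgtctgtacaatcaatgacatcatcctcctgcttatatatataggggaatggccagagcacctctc
YAP1: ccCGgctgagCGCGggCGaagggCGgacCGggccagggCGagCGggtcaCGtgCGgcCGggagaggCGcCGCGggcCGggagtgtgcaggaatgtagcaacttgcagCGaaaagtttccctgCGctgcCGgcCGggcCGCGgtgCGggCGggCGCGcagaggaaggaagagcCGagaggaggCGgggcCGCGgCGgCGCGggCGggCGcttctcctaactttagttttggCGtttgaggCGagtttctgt
MGMT: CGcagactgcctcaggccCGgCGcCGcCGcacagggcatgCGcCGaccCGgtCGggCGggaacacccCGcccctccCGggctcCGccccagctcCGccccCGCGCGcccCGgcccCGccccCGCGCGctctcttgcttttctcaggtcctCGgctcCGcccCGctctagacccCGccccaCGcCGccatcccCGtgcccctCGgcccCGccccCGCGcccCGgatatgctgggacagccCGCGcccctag
The CHGA stretch held 21 CG dinucleotides and the NTS stretch 2, while those of YAP1 and MGMT held 36 each. Over the 35116 promoters that RefSeq's table lists, the median was 11, and 93.9% held at least 1 CG. As many as in CHGA or more were present in 30.2% of listed promoters, as many as in NTS or more in 85.3%, and 36 or more in 4.85%. Among these 4, the genes without counts had the denser stretches. The 4 were chosen after their values were seen, and no larger set of expressed and silent genes was compared. Methylation was not measured in these libraries, and the sequences say nothing about which factor binds.

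The libraries held 56467189, 60697602 and 57885182 counts. A gene with 3 counts stood between 0.0494 and 0.0531 CPM in them, and a gene with 0 counts in all 3 could have lain at up to 0.0171 CPM, both limits covering counting error only. A count was seen for 35309 of 60671 annotated genes in at least 1 library, and for 26654 in every library. Of all genes, 16799 (27.7%) reached 1 TPM in every library. Among protein-coding genes these were 12452 of 19903 (62.6%), and 2839 protein-coding genes had 0 counts. The counts of list members at 1 TPM below are to be read beside this share of 62.6%. The lists were chosen with earlier results of these data known, so these counts may in part reflect that choice. Counted from the most abundant gene down, 1203 ± 9.85 genes held 50% of a library, and 6600 ± 3.61 held 90%. The 75 genes at a mean of 1000 TPM or more held 14.1% of all counts, the 1434 at 100 to 1000 TPM held 34.4% and the 8397 at 10 to 100 TPM held 46.9%. The middle of the range thus carried more of the libraries than the most abundant genes did.

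Mitochondrial transcripts led the order by CPM. MT-RNR2, the large ribosomal RNA of the mitochondrion, stood at 18293, 20035 and 18835 CPM. MT-CO1, the catalytic subunit of cytochrome c oxidase, followed at 10404, 10652 and 10763 CPM, and MT-ND4, a subunit of complex I, at 6762, 7423 and 7263 CPM. All 15 mitochondrially encoded genes in the list passed 1000 TPM, from 4196 for MT-ND5 to 40507 for MT-RNR2. Together the mitochondrial genome gave 7.23% ± 0.281 of counts, with 4.92% in messenger RNA and 2.30% in ribosomal RNA. MT-RNR1, the small ribosomal RNA, varied most within this list, at 2920.1, 5234 and 3732 CPM, and was highest in replicate 2. The other 14 genes of the list had CVs (the SD as a percent of the mean) of at most 6.59%. MT-ATP8 overlaps MT-ATP6 over 22.2% of its exon bases, where fragments are not assigned to either gene, so its level is uncertain.

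Among nuclear protein-coding genes, GAPDH, the glycolytic enzyme, ranked 1 by TPM at 6109.5, 6381 and 6381 TPM. The cytoskeletal ACTG1, gamma-actin, was next at 3615, 3660.2 and 3691 TPM, then EEF2, which moves the ribosome along the message, at 3008, 2969 and 3089.6 TPM. MYCN ranked 4 at 2817, 2719 and 2855 TPM. No library of MYCN overlapped GAPDH, ACTG1 or EEF2, nor did any reach down to RPS12, a small-subunit ribosomal protein with rank 5 at 2690.1, 2535 and 2643 TPM. INSM1 ranked 15, so that 2 transcription factors stood among tubulins, chaperones and ribosomal proteins. These ranks rest on merged exon lengths. With the longest transcript as length, MYCN stood at 2197 TPM. INSM1 stood at 1281 TPM, below EEF1A1 at 1556 TPM, which it exceeded with merged lengths. Ranks with that length were not computed. By CPM, which does not correct for length, MAP1B, a microtubule-binding protein of growing axons, had 4254, 4819.6 and 4488 CPM. Its libraries lay across the range of GAPDH, at 4413, 4600.5 and 4630.4 CPM, so the order of these genes by CPM was not settled. All 25 genes of the cytoskeleton and housekeeping list reached 1 TPM, with a median of 1099 TPM and a lowest value of 138 TPM for EEF1A2, the elongation factor isoform of neurons and muscle. Its widely expressed relative EEF1A1 was 11.7 ± 0.274 times as high. The 79 cytosolic ribosomal protein genes all passed 1 TPM, with a median of 398 TPM, and held 3.45% of counts. RPL36A was the lowest, at 6.95 TPM. Many ribosomal protein genes have near-identical copies elsewhere in the genome, and fragments that mapped to several places were not counted, so their levels are uncertain.

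**Figure D2:**
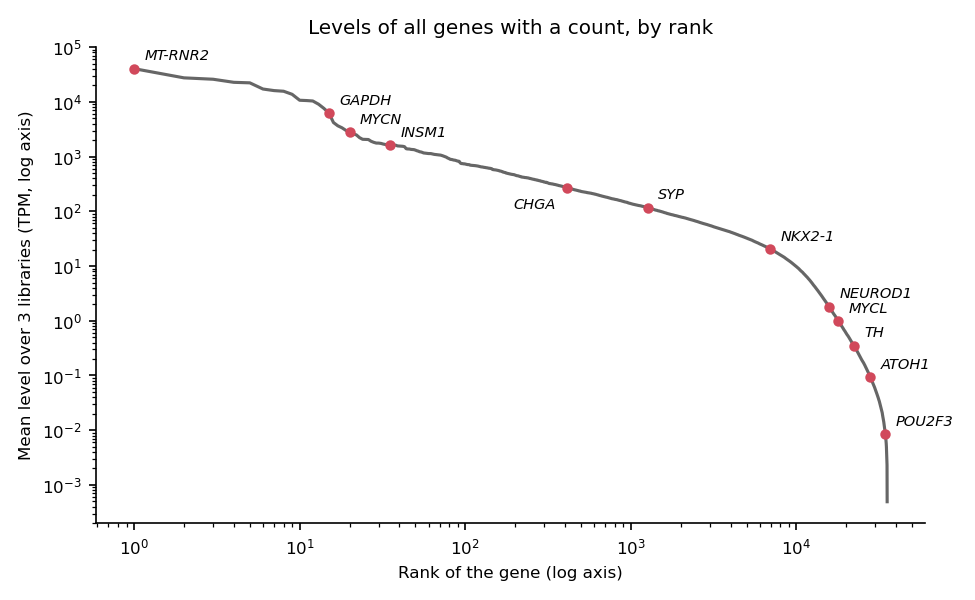
Mean TPM of every gene with counts in the DMSO libraries against its rank, both on log axes, with 12 genes labelled. MYCN lies at overall rank 20 and INSM1 at 35, and low counts such as those of NEUROD1 lie in the falling tail.

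Coordinates in brackets are those of the deposited tables, on GRCh38. The subtype factors NEUROD1, ATOH1, POU2F3 and YAP1 were all low. NEUROD1 (ENSG00000162992, chromosome 2, 181673088 to 181680547) had 114, 84 and 85 counts, or 1.80 ± 0.384 TPM, and was highest in replicate 1. ATOH1 (ENSG00000172238, chromosome 4, 93828753 to 93830964) had 5, 4 and 2 counts. POU2F3 (ENSG00000137709, chromosome 11, 120236640 to 120319945) had 0, 0 and 3 counts, at the limit that 3 counts set. YAP1 (ENSG00000137693, chromosome 11, 102110447 to 102233424) had no count in any library. Among these 4 the order was therefore NEUROD1 and then 3 factors at or near 0, and the libraries of NEUROD1 did not overlap those of ATOH1.

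A list of neuroendocrine lineage genes was mostly expressed: 19 of 22 genes reached 1 TPM in every library, with a median of 53.6 TPM, against a median of 6.51 TPM over all protein-coding genes. INSM1 had the highest level of the list. SOX2, a factor of progenitor cells, stood at 646, 637 and 635 TPM, with little difference between libraries. HES6, which counters the NOTCH effector HES1, had 684, 583 and 638 TPM and was lowest in replicate 2. FOXA2, a factor of endoderm, had 246 ± 0.398 TPM, and FOXA1 118 ± 4.52 TPM. BEX1, a small adaptor protein of neurons, had 245 ± 7.27 TPM, and KIF1A, the motor that carries dense-core vesicles along axons, 204 ± 2.21 TPM. NKX2-1, the lung and thyroid lineage factor, was lower, at 21.6, 20.2 and 19.9 TPM. The 3 members that fell short of 1 TPM in at least 1 library were MYCL, RET, the GDNF-family receptor kinase, and SOX1. MYCL, a MYC relative amplified in some small cell tumours, stood at 1.13, 0.908 and 0.913 TPM, and RET at 0.778, 0.876 and 0.838 TPM. SOX1 had 6, 3 and 4 counts.

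In the NEUROD1-type list, 11 of 18 genes (61.1%) reached 1 TPM in every library, near the 62.6% of all protein-coding genes. The median was 2.22 TPM, against 6.51 TPM over all protein-coding genes. NEUROD4, a bHLH factor of neuronal differentiation related to NEUROD1, had the highest level at 151, 146 and 147 TPM. SSTR2, a somatostatin receptor, had 75.8, 70.8 and 72.2 TPM. Both were far above NEUROD1 itself in every library. NHLH1, NEUROD2, NEUROG2 and NHLH2, further bHLH factors of neurons, lay between 5.43 and 13.3 TPM. NEUROD6 and OLIG2 had 0 counts in all 3 libraries. The neurofilament genes NEFL and NEFM, which encode the intermediate filaments of axons, had 2 and 1 counts over the 3 libraries. The list therefore held genes from over 100 TPM down to 0, with no common level.

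The tuft-like list had 8 of 18 genes (44.4%) at 1 TPM, against 62.6% of all protein-coding genes, and a median of 0.543 TPM. Its highest members were SOX9, an epithelial progenitor factor, at 38.3 ± 1.49 TPM, IL17RB, a receptor for interleukin 25, at 22.1 ± 1.44 TPM, and POU2AF3, one of the co-activators of POU2F3, at 20.4, 20.3 and 20.6 TPM. The other co-activator in the list, POU2AF2, had 0.0437, 0.245 and 0.0849 TPM. CHAT, the enzyme that makes acetylcholine, had 5.58 ± 0.583 TPM. TRPM5, the taste-cell ion channel, had 0.178, 0.193 and 0.158 TPM, AVIL, an actin-binding protein of tuft cells, 0.289, 0.446 and 0.291 TPM, and GFI1B 8 counts in all. IL25 and HPGDS had 0 counts. SOX9, IL17RB and POU2AF3 were thus the members above 10 TPM, and the factor POU2F3 itself was near 0.

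Of the non-neuroendocrine list, 12 of 28 genes (42.9%) reached 1 TPM, against 62.6% of all protein-coding genes, with a median of 0.273 TPM. VIM, the intermediate filament of mesenchymal cells, had 1, 2 and 0 counts. REST, the repressor of neuronal genes, had 1, 4 and 2 counts. CAV1, the scaffold of caveolae, had 0, 4 and 0 counts, and WWTR1, the relative of YAP1, 3, 11 and 7 counts. EGFR and AXL, both receptor tyrosine kinases, had 0 counts in every library, which allows up to 0.0171 CPM. The list was not silent throughout. S100A6, a calcium-binding protein, reached 977, 872 and 948 TPM. MET, the receptor for hepatocyte growth factor, had 74.8, 76.2 and 73.5 TPM, and ANXA2, a membrane-binding protein, 69.7, 69.2 and 70.5 TPM. Among mesenchymal transcription factors, TWIST1 stood at 51.6, 46.3 and 51.9 TPM and SNAI2 at 46.6, 46.1 and 44.5 TPM, while ZEB1 had 1.57, 1.80 and 1.38 TPM and ZEB2 0.148, 0.147 and 0.122 TPM. TWIST1 and SNAI2 were thus above ZEB1 and ZEB2 in each library. S100A10, a partner of ANXA2, completed the 6 highest at 37.5 ± 3.60 TPM. CD44, an adhesion receptor, had 17.6 ± 0.472 TPM.

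Genes of antigen presentation were mostly low, with 6 of 21 at 1 TPM and a median of 0.352 TPM. HLA-C, a class I heavy chain, had 109.8, 106 and 115 TPM, and its partner B2M 119, 114 and 122 TPM. HLA-B, another class I heavy chain, had 7.2, 7.64 and 7.59 TPM. HLA-C was 14.7 ± 0.758 times as high as HLA-B. HLA genes resemble each other, and fragments that mapped to several places were not counted, so these levels are uncertain. TAPBP, which bridges the peptide transporter and class I molecules, had 65.7 ± 0.347 TPM. The transporter subunit TAP1 had 0.403, 0.308 and 0.344 TPM, and the immunoproteasome subunits PSMB8 and PSMB9 had 0.339 and 0.0743 TPM. ERAP1, which trims peptides in the endoplasmic reticulum, had 7.10 ± 0.496 TPM. The class II genes HLA-DRA and HLA-DRB1 had 0 counts. CGAS, a sensor of cytosolic DNA, and STING1, the adaptor that acts after it, stood at 0.310, 0.210 and 0.396 TPM and 0.686, 0.730 and 0.618 TPM. Each of these 2 genes was under 1 TPM in all libraries.

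The neuroendocrine secretory list was expressed nearly in full: 49 of 50 genes reached 1 TPM, 45 had a mean of 10 TPM or more and 20 of 100 TPM or more. The median was 77.8, 76.4 and 76.0 TPM in the libraries. The granins, which condense cargo in dense-core granules, were all present. CHGB had 292, 288 and 286 TPM and CHGA 267, 270.3 and 272 TPM. SCG2 had 269, 268 and 263 TPM, and these values overlapped those of CHGA, while CHGB lay above both in every library. VGF, a precursor of several neuropeptides, had 233 ± 7.34 TPM, and SCG3, which sorts granins to the granule membrane, 182 ± 2.89 TPM.

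The enzymes that turn peptide precursors into hormones were each expressed. PCSK1, a prohormone convertase, had 99.8, 102 and 97.1 TPM, and PCSK2, the other convertase of granules, 58.4, 56.6 and 56.8 TPM. PCSK1 was 1.74 ± 0.0586 times as high as PCSK2. Their inhibitors or chaperones PCSK1N and SCG5 had 142 ± 4.99 TPM and 73.2 ± 3.02 TPM. CPE, which trims basic residues from the cut peptides, had 209 ± 10.3 TPM, and PAM, which amidates their ends, 157 ± 0.881 TPM. For amines, DDC, the decarboxylase that makes dopamine and serotonin, had 280.3, 259.6 and 259 TPM. The vesicular monoamine transporters SLC18A2 and SLC18A1 had 52.6, 51.1 and 51.2 TPM and 46.0, 46.0 and 46.3 TPM. SLC18A2 was above SLC18A1 in each library, by a ratio of 1.12 ± 0.0203. This ratio depends on the exon lengths used, and the order under another length was not computed. TPH1, the first enzyme of serotonin synthesis, had 91.5, 92.4 and 87.1 TPM, whereas TH, the first enzyme of dopamine synthesis, had 0.351, 0.344 and 0.359 TPM. DBH, which converts dopamine to noradrenaline, had 0.979 ± 0.0212 TPM.

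For release, SNAP25 and STX1A, the membrane partners of vesicle fusion, had 79.4 ± 0.800 TPM and 77.4 ± 3.02 TPM, and VAMP2, their partner on the vesicle, 21.1 ± 0.466 TPM. The synaptotagmins, membrane proteins of vesicles, included the calcium sensors SYT1 and SYT7: SYT4, SYT7 and SYT1 had 181, 89.6 and 72.7 TPM, and SYT11 had 38.0 TPM. SYT13 was the one gene of the list under 1 TPM, at 0.345, 0.412 and 0.346 TPM. SYP, a membrane protein of small vesicles used in diagnosis, had 124, 111 and 116 TPM. The highest level in the list was that of UCHL1, a ubiquitin hydrolase of neurons, at 575, 559.7 and 564 TPM. The neuronal tubulin TUBB2B stood at 412, 391 and 402 TPM, SCGN, a calcium-binding protein of endocrine cells, at 300.1, 288 and 301 TPM, and TUBB3 at 35.2 ± 1.04 TPM. ELAVL3 and ELAVL4, neuronal RNA-binding proteins, had 133 ± 4.11 TPM and 37.4 ± 1.65 TPM. TUBB3 shares 35.8% of its exon bases with another gene on its strand, so its level is uncertain.

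The peptides themselves were few. Of 49 genes for peptide hormones, 16 reached 1 TPM and 12 had 0 counts, with a median of 0.167 TPM. GRP, gastrin-releasing peptide, had 168, 164 and 176 TPM. NPW, neuropeptide W, had 156, 146 and 161 TPM, and NTS, neurotensin, 85.3, 70.3 and 79.1 TPM. All 3 were lowest in replicate 2. NMU, neuromedin U, had 24.4 ± 1.88 TPM, ADM, adrenomedullin, 12.7 ± 0.805 TPM, and ADM2 12.2 ± 0.789 TPM. Below these, POMC, the precursor of corticotropin, had 0.306, 0.748 and 0.371 TPM. CALCA (calcitonin), GCG (glucagon), IAPP (amylin) and INS (insulin) had 0 counts in all 3 libraries. INS shares 37.5% of its exon bases with another gene on its strand, where fragments would not be assigned to it. A mean of 10 TPM or more was found for 45 of 50 neuroendocrine secretory genes and for 6 of 49 peptide genes. Over all protein-coding genes it was found for 8868 of 19903. The secretory list also holds cargo, such as the granins and VGF, so these counts do not separate machinery from cargo.

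NOTCH signalling lets a ligand on one cell act on a receptor of its neighbour, and it opposes the neuroendocrine fate. Here 24 of 26 genes of the pathway (92.3%) reached 1 TPM, against 62.6% of all protein-coding genes, with a median of 19.7 TPM. Among ligands, DLL3 was followed by JAG2 at 59.6, 59.8 and 61.3 TPM and DLL1 at 42.5 ± 2.32 TPM, with DLL4 at 12.5 ± 0.552 TPM and JAG1 at 10.1 ± 0.169 TPM. Among receptors, NOTCH2 had 18.4, 19.6 and 19.4 TPM. NOTCH1 had 1.82, 2.04 and 2.07 TPM, NOTCH4 1.62, 1.6 and 1.39 TPM and NOTCH3 0.125, 0.262 and 0.127 TPM. NOTCH2 was above the other receptors in every library, and DLL3 was 46.4 ± 5.26 times as high as NOTCH1. Of the target genes, HEY2 had 73.3, 67.9 and 70.0 TPM, HES4 55.6 ± 2.74 TPM, NRARP, a feedback inhibitor, 54.2 ± 2.06 TPM and HES1 20.5, 22.2 and 20.5 TPM. HES6 was 30.3 ± 3.69 times as high as HES1. RBPJ, the DNA-binding partner of the receptors, had 47.0 ± 2.32 TPM, and its co-activator MAML1 51.4 ± 0.322 TPM.

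In the MYC family, MYCN (ENSG00000134323, chromosome 2, 15940550 to 15947007) had 125436, 129915 and 130918 counts. MYC, its widely expressed relative, had 1.64, 1.6 and 1.66 TPM, and MYCL 1.13, 0.908 and 0.913 TPM. In TPM, MYCN was 1717, 1699 and 1725 times as high as MYC, and 2503, 2993 and 3128 times as high as MYCL. The 3 libraries differed little in the first ratio and more in the second, which rests on 262 MYCL counts over all libraries. MAX, the obligate partner of the MYC proteins, had 30.7, 29.9 and 30.8 TPM, so MYCN was 91.8 ± 0.935 times as high. The neighbours of MYCN on chromosome 2 had lower levels. DDX1, an RNA helicase often co-amplified with MYCN, had 87.3, 86.3 and 84.1 TPM, and NBAS, a vesicle-tethering protein, 7.85, 9.02 and 9.30 TPM. MYCNOS, transcribed from the opposite strand of the MYCN locus, had 54.7, 51.7 and 52.2 TPM, and its counts were 3.69% of those of MYCN. Counting used strand, and whether some MYCNOS counts were misassigned MYCN fragments was not tested. MLX, MXD4 and MLXIP, further members of the MAX network, lay between 49.6 and 50.7 TPM. Of the 17 genes in the list, 16 reached 1 TPM in every library.

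Genes of cell cycle control govern entry into S phase. CDKN1A, which inhibits cyclin-dependent kinases, had 690.2, 665 and 682 TPM, the highest value of its list. CDK4, a G1 kinase, had 261 ± 11.9 TPM, and E2F1, the factor that RB1 restrains, 258, 240.3 and 245 TPM. CDKN2C, an inhibitor of CDK4, had 183 ± 6.77 TPM, and CDKN2A, which encodes a CDK4 inhibitor and ARF, 126, 113 and 122 TPM. RB1 had 8.73, 9.35 and 9.29 TPM, and CDKN2A was 13.2 ± 1.17 times as high. These are levels of RNA, which say nothing about whether the protein is made or works. CCNE2, a cyclin of the G1 to S step, had 140.1 ± 5.32 TPM, and CDKN1B 123 ± 4.53 TPM. The D cyclins CCND3 and CCND1 had 28.4 and 25.6 TPM. CCND2, at 0.125, 0.254 and 0.214 TPM, was the one gene of 26 under 1 TPM.

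All 26 proliferation genes passed 1 TPM, with a median of 121 TPM and a lowest value of 41.3 TPM for the spindle checkpoint kinase BUB1. PCNA, the sliding clamp of DNA polymerase, had 1011, 963 and 991 TPM. MCM3 and MCM7, subunits of the replicative helicase, had 482 ± 9.60 TPM and 468 ± 7.64 TPM. TYMS, which makes thymidylate, had 323 ± 2.94 TPM, TOP2A, the topoisomerase of dividing cells, 259 ± 6.12 TPM, and CCNB1, the mitotic cyclin, 249 ± 4.24 TPM. MKI67, which encodes the Ki-67 antigen, had 80.3, 89.6 and 80.1 TPM and was highest in replicate 2.

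Glycolytic genes were high. Of the 26 genes of glycolysis and hypoxia, 25 reached 1 TPM, with a median of 86.4 TPM. After GAPDH came ENO1, enolase, at 1177, 1221 and 1252 TPM, TPI1, triose phosphate isomerase, at 1166, 1124 and 1165 TPM, and LDHA, the lactate dehydrogenase subunit of glycolytic tissues, at 1080.0, 1167 and 1166 TPM. ENO1 lay above the other 2 in every library, and TPI1 and LDHA overlapped. PGK1, phosphoglycerate kinase, had 741 ± 37.3 TPM, and PKM, pyruvate kinase, 499 ± 4.14 TPM. LDHB, the other subunit, had 38.1, 40.5 and 38.1 TPM, and LDHA was 29.3 ± 1.18 times as high. LDHB shares 33.4% of its exon bases with another gene on its strand, so this ratio may be too high. The neuron-specific enolase ENO2 had 211, 222 and 214 TPM, and ENO1 was 5.64 ± 0.192 times as high. CA9, a carbonic anhydrase induced by hypoxia, had 119.9, 141 and 148 TPM and was lowest in replicate 1. Of the glucose transporters, SLC2A1 had 56.1, 59.7 and 62.6 TPM, while SLC2A3 had 2 counts over the 3 libraries.

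Surface genes considered for therapy in this disease were broadly expressed, with 24 of 26 (92.3%) at 1 TPM, against 62.6% of all protein-coding genes. Their median was 31.5 TPM. CD24, an adhesion protein of progenitors, had 317, 325 and 322 TPM. CXCR4, a chemokine receptor, had 244, 258 and 257 TPM, and TFRC, the transferrin receptor, 222, 227 and 226 TPM. EPCAM, an epithelial adhesion molecule, had 227, 211 and 218 TPM, SEZ6, a neuronal surface protein, 194, 193 and 191 TPM, and NCAM1, the antigen CD56, 124, 129 and 123 TPM. All 6 exceeded DLL3. CDH2, the neuronal cadherin, had 22.6, 25.0 and 22.9 TPM and CDH1, the epithelial cadherin, 18.4, 19.7 and 20.6 TPM. Their ratio was 1.23, 1.27 and 1.11, so both cadherins had similar levels, with CDH2 the higher in each library. The order under another exon length was not computed. MSLN, a target in other carcinomas, had 0.0369 TPM. ERBB2, a receptor kinase, had 2.07, 2.06 and 2.12 TPM.

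Among targets of drugs, PARP1, a sensor of DNA breaks, had 366, 369 and 364 TPM, followed by TOP2A, MCL1, an anti-apoptotic protein, at 218 ± 1.31 TPM, EZH2, a histone methyltransferase, at 168 ± 2.38 TPM, BCL2L1 at 138 ± 3.32 TPM and KDM1A, a histone demethylase, at 129.7 ± 1.97 TPM. BCL2, the relative of BCL2L1, had 35.0, 39.2 and 36.3 TPM, and BCL2L1 was 3.77 ± 0.300 times as high. TOP1, the target of topotecan, had 102 ± 1.68 TPM. ATR, the replication stress kinase, had 2.90, 3.46 and 3.13 TPM. SLFN11, a factor that blocks stressed replication forks, had 1.47, 1.72 and 1.52 TPM. MGMT (ENSG00000170430, chromosome 10, 129467190 to 129770983) had 0 counts in all 3 libraries and was the one gene of 18 below 1 TPM. The kinases that GNF5 is aimed at were both present before any inhibitor: ABL1 had 103, 105 and 103 TPM and ABL2 12.6, 14.1 and 12.9 TPM. ABL1 was 8.17, 7.49 and 7.98 times as high as ABL2 in the libraries.

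Genes of neuronal channels and receptors were expressed widely, 23 of 26 (88.5%) at 1 TPM, against 62.6% of all protein-coding genes. Their median was 13.2 TPM. DRD2, a dopamine receptor, had the highest level at 201, 200.3 and 205 TPM. KCNA1, a voltage-gated potassium channel, had 116, 117 and 113 TPM, and HTR3A, a serotonin-gated channel, 108, 96.3 and 103 TPM. Nicotinic receptor subunits were present: CHRNA3 had 65.3 ± 1.47 TPM, CHRNB2 51.1 ± 0.84 TPM and CHRNA5 50.7 ± 0.434 TPM, while CHRNA7 had 0.0230 TPM. KCNH2, a potassium channel of heart and neuroendocrine cells, had 53.5 ± 0.689 TPM. CACNA1A, the pore of P/Q-type calcium channels and the antigen of Lambert-Eaton syndrome, had 22.1, 23.1 and 21.0 TPM.

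HOX genes specify position along the body axis and lie in 4 clusters. In the DMSO libraries 32 of 39 (82.1%) reached 1 TPM, against 62.6% of all protein-coding genes, with a median of 13.5 TPM. These were 9 of 11 in HOXA, 8 of 10 in HOXB, 7 of 9 in HOXC and 8 of 9 in HOXD, with cluster medians of 14.4, 68.0, 5.52 and 7.50 TPM. The HOXB cluster held the highest members: HOXB2 at 119, 114 and 116 TPM, HOXB7 at 98.4, 98.1 and 96.0 TPM, HOXB4 at 96.8, 92.3 and 95.6 TPM, HOXB5 at 83.3 ± 1.99 TPM and HOXB9 at 82.9 ± 5.50 TPM. HOXB7 and HOXB4 overlapped, and HOXB2 was above both. Outside HOXB the highest was HOXA10 at 69.7, 68.7 and 67.7 TPM. The genes at the posterior ends were low in every cluster: HOXA13 had 0.367, HOXB13 0.0315, HOXC13 0.369 and HOXD13 0.384 TPM. HOXC12 had 0 counts, and HOXB1, at the anterior end of HOXB, had 1 count in all. Exons of neighbouring HOX genes overlap in part, by 59.9% for HOXC5 and 21.4% for HOXD11, and those levels are uncertain.

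**Figure D3:**
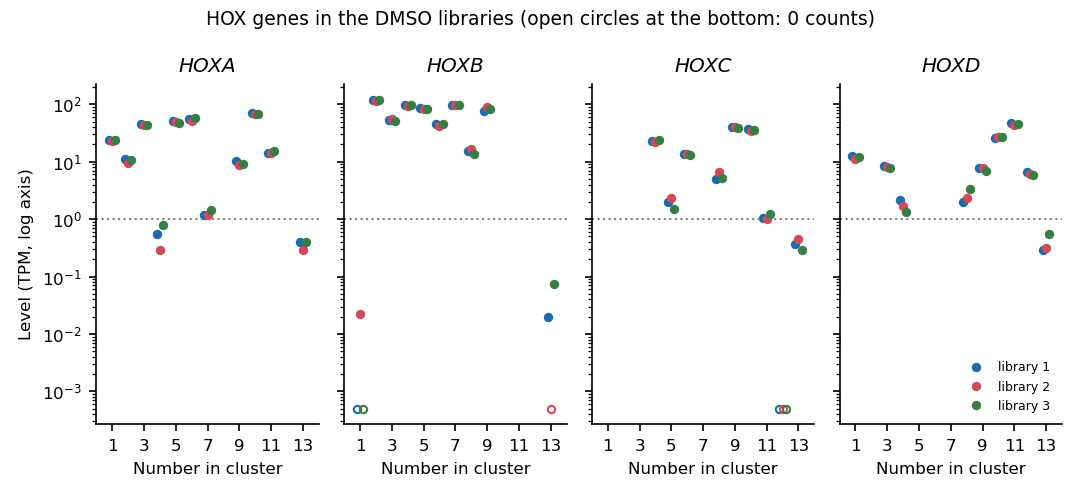
TPM of the 39 HOX genes on a log axis by their number in the HOXA, HOXB, HOXC and HOXD clusters, 1 point per library. HOXB2 to HOXB9 have means from 15.2 to 116 TPM, and the means of the genes numbered 13 all lie under 1 TPM.

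Cancer-testis genes, which are normally limited to germ cells and switched on in some tumours, were silent but for a few. Of 26, 16 had 0 counts, among them BRDT, CT83, CTAG1B and CTAG2, and 5 reached 1 TPM. These 5 were MAGEA3 at 213, 205 and 206 TPM, MAGEA6 at 149.7, 145 and 142 TPM, MAGEA12 at 113, 105 and 106 TPM, PRAME, a repressor of retinoic acid signalling, at 107, 106 and 105 TPM and DDX43, a helicase, at 9.36, 8.08 and 8.94 TPM. MAGEA4 had 1 count over the libraries and MAGEA1 none. Within 1 gene family, levels thus ran from 208 TPM to 0. MAGEA3 and MAGEA6 are near copies, so the split between them is uncertain, while their summed level was 193 CPM with a CV of 2.18%.

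Lists for other lineages had medians near or under 1 TPM, with some members far above. Of the airway and alveolar list, 8 of 24 reached 1 TPM, 5 had 10 TPM or more, and the median was 0.289 TPM. The simple epithelial keratins KRT19, KRT8 and KRT18 had 313 ± 12.1 TPM, 166 ± 8.16 TPM and 68.2 ± 4.82 TPM, and MUC1, a membrane mucin, had 28.8 ± 1.27 TPM. The surfactant gene SFTPC, which marks alveolar type II cells, had 0.498, 0.653 and 0.501 TPM, and the club cell gene SCGB1A1 had 1 count over all libraries. SCGB3A1, SCGB3A2 and SFTPB had 0 counts.

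In the islet and gut endocrine list, 9 of 17 reached 1 TPM, 5 had 10 TPM or more, and the median was 1.53 TPM. ISL1, a factor of islets and motor neurons, had 154, 156 and 149 TPM. NKX2-2, MNX1 and PAX4, factors of islet development, had 42.7 ± 0.525 TPM, 33.4 ± 2.85 TPM and 24.9 ± 2.83 TPM. NKX6-1 and RFX6, also factors of islets, had 0.0184 and 0.00479 TPM. Thus part of the islet factors was present without the islet hormones INS, GCG and IAPP.

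Of the sympathetic and chromaffin list, 6 of 14 reached 1 TPM, led by CHRNA3 and by GATA2 at 13.4 ± 0.373 TPM. HAND2, a factor of that lineage, had 0 counts. In the pituitary, skin and glial list, PITX1, a homeobox factor of the early pituitary, had 8.67 ± 0.407 TPM, and TBX19, a corticotroph factor, 4.14 ± 0.372 TPM. SOX10, the factor of glia and melanocytes, had 3 counts in all, and POU1F1 and OLIG1 none.

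Markers of other cells that a culture or tissue could hold were mostly near 0, with single exceptions. Of 12 leukocyte markers, 1 reached 1 TPM, and the summed level was 7.08 to 7.62 TPM in the libraries. That gene was CD14, a co-receptor for lipopolysaccharide, at 6.17, 6.15 and 6.23 TPM, and PTPRC, which all leukocytes carry, had 0.545, 0.591 and 0.628 TPM. CD3D, CD3E, MS4A1 and NKG7 had 0 counts. Of 7 erythroid genes none reached 1 TPM in every library, with a summed level of 0.559 to 1.59 TPM, and ALAS2 and HBB had 0 counts. Of 8 endothelial markers, 2 reached 1 TPM and the sum was 52.0 to 60.6 TPM. Most of it was CLDN5, a tight-junction protein, at 59.1, 50.7 and 56.9 TPM, while KDR and EMCN had 0 counts. Of 11 fibroblast genes, 3 reached 1 TPM in every library, and the sum of 234 to 247 TPM came mostly from POSTN, an adhesive matrix protein, at 204, 192 and 192 TPM. COL1A2, a chain of type I collagen, had 36.5, 35.7 and 37.0 TPM. Its partner chain COL1A1 had 1.10, 1.10 and 0.988 TPM, and COL3A1 had 0 counts. POSTN was 185 ± 9.87 and COL1A2 34.4 ± 2.69 times as high as COL1A1. The other fibroblast markers DCN, LUM and PDGFRA lay between 0.0561 and 0.591 TPM.

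**Figure D4:**
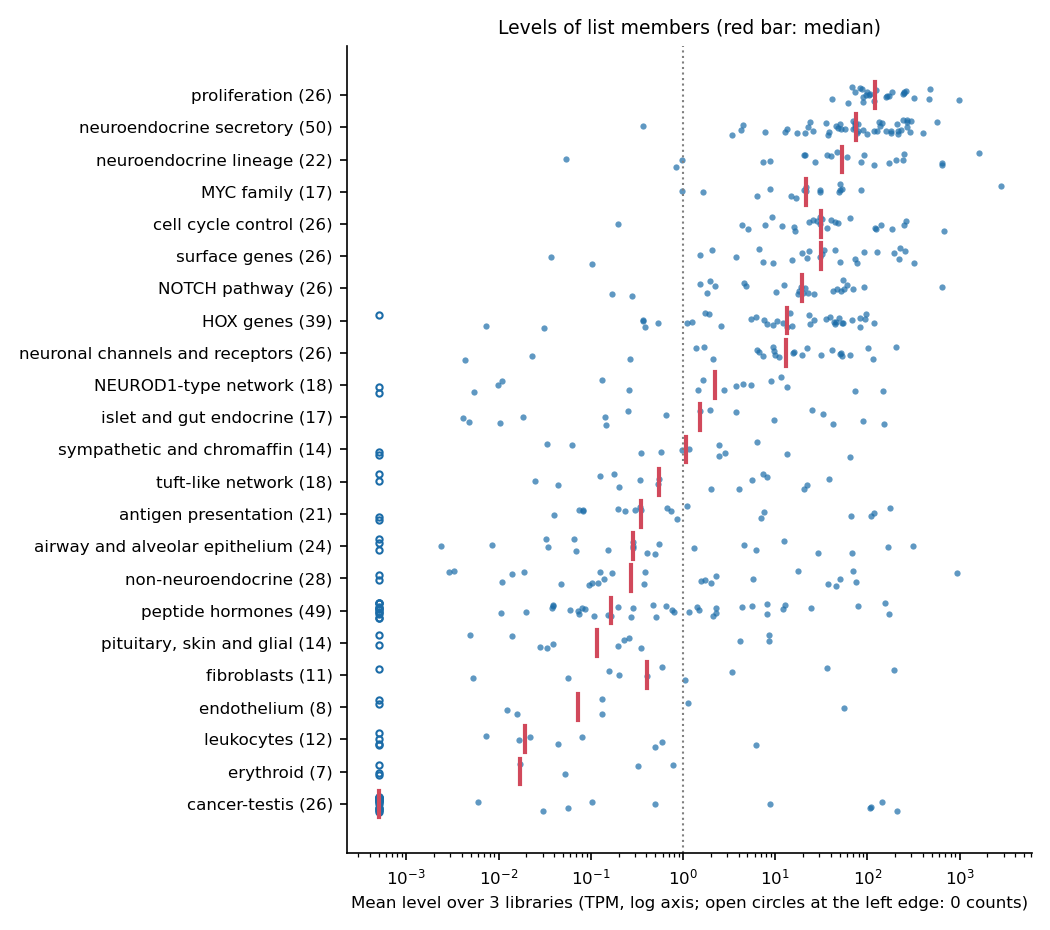
Mean TPM of every member of 23 gene lists on a log axis, with the list's median as a red mark and genes or medians at 0 drawn at the left edge. Medians are 121 TPM for proliferation genes and 75.8 TPM for neuroendocrine secretory genes, and lists of other lineages have medians of at most 1.53 TPM with some members far above.

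The spread between the 3 libraries was small. Over the 10407 genes at a mean of 10 CPM or more, the median CV was 3.20%, against 1.92% that counting alone would give, and 39.8% of genes had a CV over 2 times the counting value. The median CV fell from 4.32% at 10 to 30 CPM to 2.19% at 300 to 1000 CPM, and was 2.72% among the 57 genes at 1000 CPM or more. Between any pair of libraries, 98.8% to 99.3% of these genes lay within 1.2-fold, and 4, 3 and 1 genes differed by over 2-fold in pairs 1 and 2, 1 and 3, and 2 and 3. Pearson's r of log2 CPM across genes was 0.997 to 0.998, over genes that share library and depth. Counts of each pair differed by more than sampling noise, with a chi-square over its degrees of freedom of 8.0, 3.80 and 4.86, so none was treated as a repeat deposit of another. This does not show that they came from separate cultures. In edgeR the common biological CV was 4.17%.

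Few genes departed from this. A CV of 10% or more was found in 175 genes, of 20% or more in 11 and of 30% or more in 6. The highest was that of ENSG00000275895, a gene row without a symbol on chromosome 21, with 1814, 310 and 273 counts. RN7SL3 and RN7SL1, the RNA of the signal recognition particle, had 38.9, 5.19 and 15 CPM and 151, 29.6 and 58.6 CPM, and both were highest in replicate 1. H4C5, a histone H4 gene, had 7.79, 18.8 and 10.9 CPM, SDAD1, a ribosome assembly factor, 47.8, 91.7 and 59.0 CPM, and CBS, which makes cystathionine, 8.85, 14.9 and 9.0 CPM. These 3 were all highest in replicate 2. MALAT1, an abundant nuclear noncoding RNA, had 2361, 3564 and 2580.4 CPM and was also highest in replicate 2, as MT-RNR1 was. IGF2, an insulin-like growth factor, had 20.7, 31.6 and 26.1 CPM, with 70.7% of its exon bases shared with other genes on its strand. GTF2H2C and CKMT1B, the remaining genes among the 10 most variable with a symbol, had CVs of 22.7% and 20.5%. Among INSM1, SYP, CHGA, NCAM1, UCHL1, ENO2, DLL3 and EPCAM, CVs ran from 1.32% for CHGA to 7.25% for DLL3. DLL3, SYP (5.73%) and EPCAM (3.79%) lay above the median CV of 3.20% over all genes at 10 CPM or more. The others, with INSM1 at 2.60%, lay below it, as did MYCN at 2.80%.

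Each library had its own high genes. The 5 that stood highest in replicate 1 against the other libraries were RN7SL3, RN7SL1, ANKRD65, MRPL38 and GPX7. In replicate 2 they were H4C5, SDAD1, CBS, MT-RNR1 and GTF2H2C, and in replicate 3 TUBB2A, OLFML2A, EIF3C, SH2D3C and CEBPB. Genes that stood at least 0.5 log2 units above the mean of the other libraries numbered 3, 6 and 0 in replicates 1, 2 and 3, and 3, 3 and 4 stood as far below. The 10 genes of lowest CV were TOR2A, NTAQ1, PIGT, GPATCH2, TRAM2, TMTC3, PANK2, PALM2AKAP2, PRPF38A and ADAL, and TOR2A, a torsin-family ATPase, had 40.0, 40.0 and 40.0 CPM. With 10407 genes and 3 libraries some CVs lie below the counting error, so such low values describe these libraries only.

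**Figure D5:**
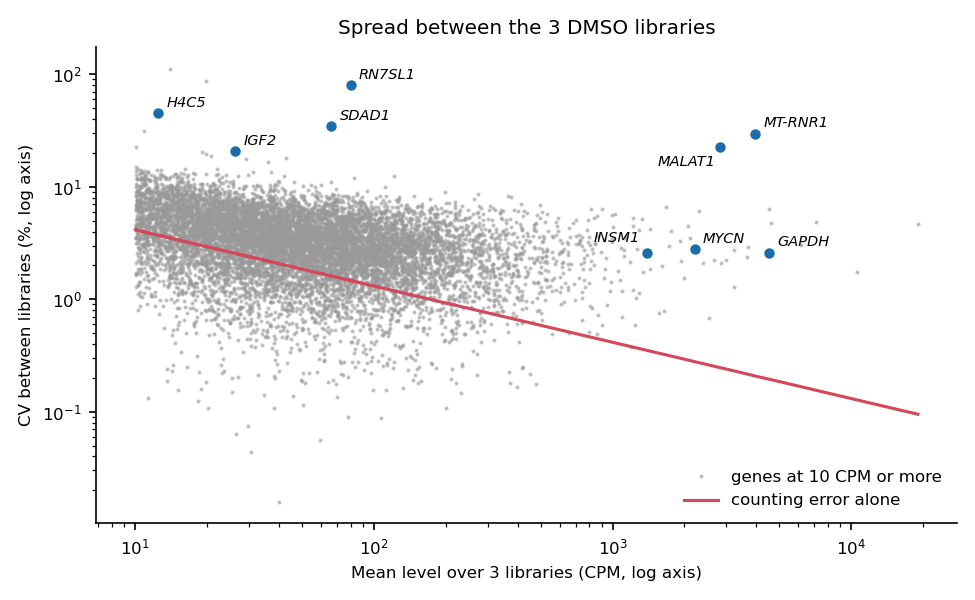
CV between the 3 DMSO libraries against mean CPM for genes at 10 CPM or more, both on log axes, with a line for the CV that counting alone would give. Most genes lie near or somewhat above the line, and RN7SL1, H4C5, SDAD1 and MT-RNR1 stand at 29.6% or more.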

How the data were processed

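RNA of NCI-H69 cells was sequenced after 48 h in DMSO (3 libraries, grouped by the treatment label). The authors deposited raw counts per gene, 1 table per library, with exon lengths. Per the file headers, featureCounts 1.6.1 counted read pairs on exons and added them up per gene, reading strand in reverse, on GRCh38 gene models of Ensembl release 101. Multi-mapped fragments and those overlapping several genes on a strand were left out, which undercounts genes that have copies or share exons. GRCh37, DESeq2, HTSeq, STAR and Trim Galore appear, with no version, in the submitters' processing notes. The headers were followed for the counter and coordinates, and the build of the alignment was not settled.

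Totals were 56467189 to 60697602 counts. CPM and TPM were computed here from the deposited counts and their merged exon lengths with python 3.11.15, numpy 2.4.6 and pandas 2.3.3. Such lengths exceeded the longest GENCODE 29 transcript by a median factor of 1.32, which lowers the TPM of genes with many exons. Symbols came from a gene name table for 60401 of 60671 rows, and gene types from GENCODE 29 for 58453. Counting CV is the CV expected from the count alone. edgeR 4.0.16 in R 4.3.3 gave TMM factors and an intercept-only dispersion, and DESeq2 1.42.0 gave size factors for an alternative. The TPM and dispersion steps were tested on simulated counts. No GNF5 library entered any step, and no test was made. Bases were read from RefSeq's promoter table (GRCh38.p14).

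The members and the 31 gene lists (717 genes, all matched) were chosen with earlier results of these data known. Named genes are the 15 highest by CPM and by TPM, the subtype factors and cell type markers, up to 6 highest members and up to 4 at 0 counts per list, the 10 genes of highest and of lowest CV, and the 5 highest of each library. Pseudogenes, clone names and sex-specific genes were passed over. Not all genes the rule takes are reported here. All other named genes, every ratio and the 4 promoters were chosen after their values were seen. Alternatives covered thresholds, scaling, gene length, the exclusion of mitochondrial genes and leaving out each library.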

Additional observations from a re-analysis of the deposited data

How the results depend on the processing

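Thresholds and lengths moved levels, and leaving out a library moved them less. Without each library in turn, genes at 1 TPM in every remaining library numbered 17069 to 17171, the 10 most abundant genes held 6.67% to 6.95% of counts and mitochondrial genes 7.09% to 7.37%. The median CV was 2.28% to 3.04%, NEUROD1 stood at 1.58 to 1.94 TPM, MYCN at 2768 to 2836 TPM, and the median of the neuroendocrine secretory list at 75.7 to 76.0 TPM. With fewer libraries the number of genes at the threshold in every library cannot fall, and a median CV tends to be lower. Neither is therefore directly comparable with its value over all libraries. With mitochondrial genes left out, the 10 most abundant genes held 3.31% of counts. With no filter beyond 1 count, the median CV was 19.5%. Without mitochondrial and short genes in the total, NEUROD1 stood at 2.47, MYCN at 3828 and the neuroendocrine secretory median at 103.7 TPM. With the longest transcript as length, these were 2197 for MYCN and 96.9 for the list, because the total and the gene's own length both change. MYCN and NEUROD1 lay too far apart for these settings to change their order. The rank of MYCN among nuclear genes was not computed under them. Over all genes at 10 CPM or more, 15.5% moved by over 1.5 times with that length. Genes without a reference transcript kept their merged length. Genes at 1 TPM in every library numbered 18926 at 0.5 TPM, 12004 at 5 TPM and 15092 at 1 CPM instead. The counts of members at the threshold moved by over 1.5 times in 3 of 31 lists at 0.5 TPM and in 7 of 31 at 5 TPM. TMM or DESeq2 scaling gave a median CV of 3.19% and 3.18%. No paired analysis was possible because the description rests on 1 group. Depth limits what a count of 0 can show to 0.0171 CPM.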

Other observations

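Long noncoding RNAs made up a further abundant group. Of 17 in the list, 15 reached 1 TPM in every library, with a median of 51.6 TPM. MALAT1 had 887, 1342 and 965 TPM, and it held 0.285% of all counts. SNHG6, a host of small nucleolar RNA, had 340.3, 309 and 339.9 TPM. NORAD, which binds PUMILIO proteins, had 218, 233 and 222 TPM. DLX6-AS1, transcribed within the DLX5 and DLX6 locus of developing neurons, had 163, 171 and 160.1 TPM. NEAT1, the scaffold of paraspeckles, had 121 ± 6.84 TPM, and TUG1 116 ± 4.66 TPM. HOTAIR, transcribed from the HOXC cluster, had 0.632, 0.589 and 0.680 TPM, between its cluster neighbours HOXC11 at 1.10 TPM and HOXC12 at 0 counts.

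RNAs that mostly lack a poly(A) tail differed in summed level between the libraries, mostly through RN7SL1. The summed level of the 24 in the list was 3884, 2479 and 2807 TPM, and 15 reached 1 TPM in every library. The difference followed RN7SL1, at 1678, 329 and 647 TPM, while the median CV of the 5 members at 10 CPM or more was 4.46%. The histone genes H2BC12 and H1-2 had 1006, 972 and 947 TPM and 916, 849 and 921 TPM, and H3C2, a replication-dependent H3 gene, 12.9, 28.2 and 20.5 TPM. RN7SK, RMRP, RNU2-2P and RN7SL2 had 0 counts. All exon bases of these 4 lie within other annotated genes on the same strand, so fragments there would not be assigned to them.

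Several of the most variable genes have a near copy elsewhere in the genome. The CV of CKMT1B was 20.5%, and that of its summed count with CKMT1A was 15.3%, against 4.80% for CKMT1A alone. For GTF2H2C it was 22.7% alone and 8.96% with GTF2H2, which had 4.41% alone. TUBB2A had 18.1% alone and 3.59% with TUBB2B, which has the higher level and had 2.70% alone. EIF3C had 13.4% alone and 6.14% with EIF3CL, which had 6.56% alone. A sum with a steadier gene has a lower CV in any case, so the drops do not show that counts pass between copies. These pairs were chosen after the values were seen, and what the copies contribute was not tested.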
